A study of Mus musculus with 4 samples.

Results

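The 9 genes described here are Kcnj10, Kcnj16, Kcnd2, Kcnd3, Kcnip3, Kcna1, Kcna2, Kcna6 and Kcnk1, taken by symbol from a table of 35869 gene rows. Of these, 8 encode pore-forming subunits of potassium channels, and Kcnip3 encodes a calcium-binding auxiliary subunit. They were chosen with their difference between genotypes in view, so that difference is given below as a description, with no test. RNA was sequenced from oligodendrocytes, glia that wrap central axons in myelin, sorted from mouse cortex at postnatal day 5 as cells carrying both the O4 and GalC surface lipids. The 2 wild-type libraries (WT) were compared with 2 libraries from Zfp488KI/KI mice, which carry a knock-in at both copies of the zinc finger gene Zfp488 and whose labelled genotype is Zfp488 KO (KO). The labels give no other allele or treatment, no strain, and no number of animals per library. The p-values of the fit over all genes therefore speak of the spread among these 4 libraries, and that spread may be technical.

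Potassium channels hold glial cells near the potassium equilibrium potential and shape how they respond to depolarization. Inward rectifiers of the Kcnj family carry potassium uptake and set the resting potential of astrocytes and oligodendrocytes. Oligodendrocyte precursors are known for large outward currents of the A type, carried by Kv4 channels of the Kcnd family, and of the delayed rectifier type, to which Kv1 channels of the Kcna family contribute, and these outward currents decline as the cells mature.

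Most potassium channel pores are lined by a selectivity filter with the signature glycine, tyrosine, glycine, and the coding bases of that filter are shown because they are what the 8 channel genes share in sequence. The motif searched was 5 codons in frame, for threonine, any residue, glycine, tyrosine and glycine, on the coding strand of GENCODE M21 transcripts (GRCm38). It occurred in the longest coding sequence of 57 of 77 pore-forming potassium channel genes (74%), of 57 of 21390 other protein-coding genes (0.266%), and in the coding sequence of each of the 8 channel genes, 1 time each. Kcnip3, with a coding sequence of 852 bases, holds no such motif. For 7 of the genes, the 27 bases around the motif run 5′ to 3′ on the coding strand, with the 5 codons in capitals.
Kcnj10: cagaccACCATCGGCTATGGCttccgc
Kcnd2: atgacaACACTGGGGTATGGCgacatg
Kcnd3: atgactACACTGGGATATGGAgacatg
Kcna1: atgaccACTGTGGGATACGGTgacatg
Kcna2: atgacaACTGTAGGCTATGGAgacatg
Kcna6: atgaccACGGTAGGTTATGGGgacatg
Kcnk1: ctctccACCACAGGCTATGGCcacacg
Over the 15 bases in capitals, Kcnd2 and Kcnd3 differed at 2 positions, while Kcna1 and Kcnk1 differed at 7. In Kcnd2 the window is split by an intron between chr6:21217400-21217413 and chr6:21714135-21714147, and in Kcnd3 it is split after the same number of bases, 14, between chr3:105459908-105459921 and chr3:105658611-105658623. Kcnk1 is also interrupted there (chr8:125995802-125995814 and chr8:126025012-126025025). The windows of Kcnj10 (chr1:172369296-172369322), Kcna1 (chr6:126642222-126642248, minus strand), Kcna2 (chr3:107105218-107105244) and Kcna6 (chr6:126738641-126738667, minus strand) each lie within 1 exon.

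Values are FPKM, sequenced fragments scaled to transcript length and to the mapped total, so levels can be set side by side between genes. Low values stepped by whole fragments, and 1 FPKM on a transcript of 1 kb stood for about 37.4 and 44.5 fragments in the WT pair and for 40.1 and 38.7 in the KO pair. Depth thus did not separate the genotypes. Zfp488 itself was at 6.61 and 5.29 FPKM in the WT pair against 4.82 and 4.11 FPKM in the KO pair (log2 difference -0.34, SE 0.33; limma adjusted p = 0.95), and the sources used here do not state what the knock-in allele removes. Of 10754 rows tested, 0 (0%) passed an adjusted p of 0.05 by limma, and 608 (5.65%) had an unadjusted p under 0.05. The oligodendrocyte gene Cnp, which encodes an enzyme of non-compact myelin, was present throughout, with 440.1 and 261.1 FPKM for the WT pair and 308.8 and 150.7 FPKM for the KO pair. The libraries numbered 2 stood apart in both genotypes by some markers of other cells. The 6 endothelial and mural markers summed to 38.1 FPKM (WT 2) and 36.0 FPKM (KO 2), against 0.451 FPKM (WT 1) and 0.035 FPKM (KO 1). Most of this was Cldn5 (26.8 FPKM in WT 2, 26.3 FPKM in KO 2) and Rgs5 (9.90 and 9.38 FPKM). Of the other endothelial markers, Pecam1 was at most 0.002 FPKM and Cdh5 at most 0.353 FPKM in any library. Flt1 was high in WT 2 alone, at 0.002 and 1.20 FPKM in the WT pair and listed at 0 in both KO libraries. Pdgfrb, the other mural marker beside Rgs5, was at most 0.158 FPKM.

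Kcnj16 was the gene with the widest gap between the genotypes. It encodes an inward rectifier subunit, Kir5.1, that forms channels together with Kir4.1, the product of Kcnj10. The WT pair read 0.47 and 1.73 FPKM and the KO pair 5.79 and 6.22 FPKM, each in the order of library 1, then 2, as below. Both KO libraries lay above both WT libraries, and the WT libraries were 3.67-fold apart while the KO libraries were 1.08-fold apart. On the log2(FPKM + 1) scale, which understates the change of low genes, the difference was 1.81 (SE 0.44). The ratio of KO to WT in FPKM was 12.3 between the libraries numbered 1 and 3.61 between those numbered 2. The size therefore rested on the WT library it was set against, and without WT replicate 1 the log2 difference was 1.36. On the longest annotated transcript of 3701 bases, the value in WT 1 came to about 65.1 fragments and that in KO 2 to about 892.

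Kcnj10, the partner gene, did not separate the genotypes. It was at 5.22 and 5.36 FPKM in the WT pair against 9.65 and 3.19 FPKM in the KO pair, so that KO 1 was the highest and KO 2 the lowest of all libraries. The log2 difference was 0.09 (SE 0.52). It was -0.59 without KO replicate 1 and 0.76 without KO replicate 2, a reversal of sign that rested on which KO library was kept. The 2 genes differed in their balance from library to library: the FPKM ratio of Kcnj10 to Kcnj16 was 11.1 and 3.11 for the WT pair but 1.67 and 0.513 for the KO pair. Both KO ratios lay below both WT ratios, and in KO 2 alone Kcnj16 exceeded Kcnj10.

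Both inward rectifier genes are also expressed by astrocytes. Of 10 astrocyte markers, 6 were tested, and among these 6 the KO pair lay wholly above the WT pair for 0 and wholly below for 0. Since 16.6% of all tested rows lay above and 18.3% below in this way, counts of 0 among 6 genes tell little. The summed level of the 10 was 320 and 279 FPKM in the WT pair against 262 and 332 FPKM in the KO pair. S100b, which oligodendrocytes also express, and Slc1a3, which precursors also express, were the 2 most abundant. That sum hid differences by library number. Gja1 rose from 1.10 (WT 1) to 37.9 FPKM (WT 2), and from 3.35 (KO 1) to 25.9 FPKM (KO 2). Gfap rose likewise, from 1.01 (WT 1) to 3.32 FPKM (WT 2), and from 0.459 (KO 1) to 7.58 FPKM (KO 2). S100b was lower in the libraries numbered 2 of both genotypes, and Fgfr3 in WT alone. Aqp4, the water channel of astrocyte end-feet, was at 0.105 and 0.618 FPKM in the WT pair against 0.07 and 1.37 FPKM in the KO pair. Aldh1l1 was listed at 0 in both libraries numbered 1, and those numbered 2 had 0.408 (WT) and 4.43 (KO) FPKM, and Gjb6 was at most 0.014 FPKM in any library. The part of astrocytes in the values of Kcnj10 and Kcnj16 was not tested.

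At the locus, Kcnj16 (chr11:110968033-111027968, plus strand, 6 annotated transcripts) and Kcnj2 are adjacent inward rectifier genes, 38.2 kb apart. Kcnj2 was read at 0.004 FPKM in WT 2 and listed at 0 in the other 3 libraries. Kcnj10 (chr1:172341210-172374085, plus strand) lies 11.9 kb from Kcnj9, which was at 0.011 and 1.25 FPKM in the WT pair against 1.21 and 0.004 FPKM in the KO pair. Kcnj2 was too near 0 to show any pattern. Kcnj9, like Kcnj10, was higher in KO 1 than in KO 2, but its WT libraries were far apart while those of Kcnj10 nearly coincided. Whether neighbours varied together was not tested.

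Kcnd2, which encodes the Kv4.2 pore of A-type currents, was the most abundant pore-forming potassium channel gene in all 4 libraries. It was at 20.0 and 20.7 FPKM in the WT pair against 41.6 and 29.2 FPKM in the KO pair. The WT libraries nearly coincided, both KO libraries lay above them, and the KO libraries were 1.43-fold apart. The log2 difference was 0.75 (SE 0.27), and it was 0.5 without KO replicate 1 and 1 without KO replicate 2. Kcnd2 made up 30.8% and 23.8% of the summed FPKM of all 77 pore-forming potassium channel rows in WT, and 35.5% and 29.8% in KO, ranges that overlapped.

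Kcnd3, which encodes Kv4.3 of the same family, was at 1.44 and 0.961 FPKM in the WT pair against 0.503 and 2.02 FPKM in the KO pair. The KO libraries were 4.02-fold apart and enclosed both WT libraries, and the log2 difference was -0.04 (SE 0.49). Its sign depended on single libraries, with -0.54 without KO replicate 2 and 0.47 without KO replicate 1. Of the summed FPKM of Kcnd1, Kcnd2 and Kcnd3, Kcnd2 accounted for 89% and 95.6% in the WT pair against 98.8% and 88.5% in the KO pair. The antisense gene Kcnd3os, which overlaps the start of Kcnd3 (chr3:105452330-105674002), was at 0.468 and 3.93 FPKM in the WT pair against 0.253 and 2.67 FPKM in the KO pair. The sources used here do not state whether counting used strand, so reads of this overlap cannot be assigned to either gene. Kcnd2 (chr6:21215503-21729805, plus strand) spans 514.3 kb, the longest locus of the 9 genes.

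Kcnip3 encodes KChIP3, a calcium sensor that binds the amino terminus of Kv4 channels and is also known as the transcriptional repressor DREAM. It was the most abundant of the 9 genes in WT, where it was at 23.9 and 30.1 FPKM, against 35.3 and 34.5 FPKM in the KO pair. Both KO libraries lay above both WT libraries, but the step from WT 2 to KO 2 was 1.15-fold, less than the 1.26-fold gap between the WT libraries. The log2 difference was 0.37 (SE 0.23), and it was 0.21 without WT replicate 1. Kcnip3 provided between 74.9% (WT 1) and 85.1% (KO 2) of the summed FPKM of Kcnip1 to Kcnip4. The gene lies on the minus strand at chr2:127456498-127522094.

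The other Kv4 partners were a list of 5 genes, 4 of them tested, of which 0 passed the adjusted threshold by limma, the KO pair lay wholly above for 2 and below for 0, where 16.6% and 18.3% of all tested rows did so. Dpp6, which encodes a membrane protein that speeds Kv4 gating, was at 7.07 and 6.39 FPKM in the WT pair against 16.3 and 9.47 FPKM in the KO pair (log2 difference 0.80, SE 0.36). As with Kcnd2, KO 1 was the highest library. Kcnip2 was at 1.55 and 1.03 FPKM in the WT pair against 2.06 and 1.58 FPKM in the KO pair. Kcnip1, the second most abundant Kcnip gene, was at 6.47 and 5.23 FPKM in the WT pair against 7.71 and 4.41 FPKM in the KO pair, with groups that overlapped.

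The 3 Kv1 genes were low. Kcna1, which encodes Kv1.1, a delayed rectifier subunit found along axons beside the node of Ranvier, was at 1.94 and 3.08 FPKM in the WT pair against 3.68 and 1.85 FPKM in the KO pair. The groups overlapped, with KO 2 the lowest library and KO 1 the highest, and the log2 difference of 0.08 (SE 0.43) turned to -0.28 without KO replicate 1. Kcna6, which encodes Kv1.6, was at 1.68 and 1.60 FPKM in the WT pair against 3.79 and 1.60 FPKM in the KO pair. KO 2 lay between the WT libraries. The log2 difference of 0.42 (SE 0.44) rested on KO 1, and it was -0.02 without that library.

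Kcna2, which encodes Kv1.2, was the lowest of the 9 genes and the single one that did not reach the filter of 1 FPKM in 2 libraries. It was at 0.202 and 0.192 FPKM in the WT pair against 0.392 and 0.279 FPKM in the KO pair. Both KO libraries lay above both WT libraries, by 1.94-fold between the libraries numbered 1 and by 1.45-fold between those numbered 2. The log2(FPKM + 1) difference was 0.16 at this low level, and 0.54 with a pseudocount of 0.1.

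The most abundant Kv1 gene was not among the 9: Kcna3, which encodes Kv1.3, was at 2.37 and 8.65 FPKM in the WT pair against 7.20 and 4.81 FPKM in the KO pair. Kcna3 made up 35.7% and 60.5% of the summed Kcna FPKM in the WT pair, against 47.4% and 54.7% in the KO pair. Kcna1 (chr6:126640397-126646384) and Kcna6 (chr6:126708329-126740674) are neighbours on the minus strand, 61.9 kb apart. In both genes the levels differed within KO: KO 1 exceeded KO 2 by 1.99-fold for Kcna1 and by 2.37-fold for Kcna6. Kcna5, the next gene of that cluster, was at most 0.429 FPKM in any library. Kcna2 (chr3:107101146-107115005, plus strand) lies 63.1 kb from Kcna3.

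Partners that anchor Kv1 channels in axons and at junctions were mostly near absent. Of 12 such genes, 3 were tested and 0 passed by limma, with 0 higher and 1 lower in both KO libraries. The shares over all tested rows were 16.6% wholly above WT and 18.3% wholly below, so nothing is read from 1 of 3. Cntnap2, a neurexin-like protein that clusters Kv1 channels beside nodes, was at most 0.545 FPKM, and Cntn2, its partner, at most 0.161 FPKM. Kcnab3, an auxiliary beta subunit of Kv1 channels, was at 4.02 and 2.98 FPKM in the WT pair against 2.03 and 2.18 FPKM in the KO pair (log2 difference -0.52, SE 0.35). Lgi3, a secreted protein that oligodendrocytes make, was by far the most abundant of this list, at 97.7 and 35.8 FPKM in the WT pair against 50.5 and 21.1 FPKM in the KO pair, with groups that overlapped.

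Kcnk1 encodes TWIK-1, a weakly conducting two-pore potassium channel. It was at 14.4 and 13.3 FPKM in the WT pair against 18.4 and 16.4 FPKM in the KO pair. Both KO libraries lay above both WT libraries, and the fold was near the same between the libraries numbered 1 (1.27) and those numbered 2 (1.23). The log2 difference was 0.31 (SE 0.25), and leaving out any 1 library left it between 0.23 and 0.38. Kcnk1 (chr8:125995170-126030685, plus strand) supplied 78% and 53.6% of the summed Kcnk FPKM in the WT pair, against 63.9% and 62.1% in the KO pair.

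**Figure D1:**
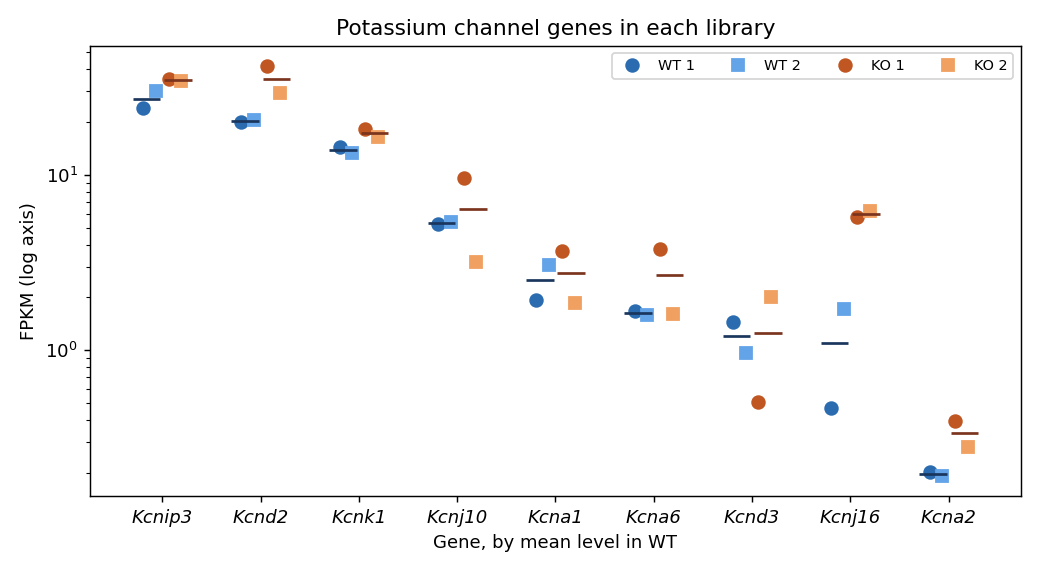
FPKM of the 9 genes on a log axis, 1 point per library (circles for libraries numbered 1, squares for those numbered 2), with a short line at each group's mean and genes ordered by mean level in WT. Kcnj16 lies at 0.47 and 1.73 FPKM for WT but at 5.79 and 6.22 FPKM for KO, while Kcnj10 and Kcna6 are high in KO 1 alone.

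In WT the order of mean levels was Kcnip3 (27 ± 4.35 FPKM, SD, n = 2), Kcnd2 (20.4 ± 0.498), Kcnk1 (13.9 ± 0.782), Kcnj10 (5.29 ± 0.104), Kcna1 (2.51 ± 0.806), Kcna6 (1.64 ± 0.0601), Kcnd3 (1.2 ± 0.339), Kcnj16 (1.1 ± 0.888) and Kcna2 (0.197 ± 0.00707). Of these neighbours, Kcnd3 and Kcnj16 overlapped and the others did not. In KO the order was Kcnd2 (35.4 ± 8.78), Kcnip3 (34.9 ± 0.568), Kcnk1 (17.4 ± 1.37), Kcnj10 (6.42 ± 4.57), Kcnj16 (6.01 ± 0.308), Kcna1 (2.77 ± 1.3), Kcna6 (2.7 ± 1.55), Kcnd3 (1.26 ± 1.07) and Kcna2 (0.336 ± 0.0799). There Kcnd2 overlapped Kcnip3, Kcnj10 overlapped Kcnj16, and Kcna1, Kcna6 and Kcnd3 overlapped in turn. Kcnj16 thus stood at rank 8 in WT and rank 5 in KO, the largest move in rank.

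Both KO libraries lay above both WT libraries for 5 of the 9 genes (Kcnj16, Kcnd2, Kcnip3, Kcnk1 and Kcna2), below for 0, and the groups overlapped for 4. The count above was 6 after rescaling to TPM and 4 after quantile normalization. Kcna2 was below the filter, and the KO pair lay above for 4 of the 8 genes past it. Over all tested rows the shares were 16.6% higher and 18.3% lower, or 21.7% and 13.1% after rescaling to TPM. Since the genes were chosen from this contrast, nothing is read from that excess. KO 1 was the highest of the 4 libraries for 7 of the 9 genes. The share of all tested rows with KO 1 highest was not computed, so nothing is read from this count either. The median log2 difference was 0.31 over all 9, beside 0 over all tested rows.

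**Figure D2:**
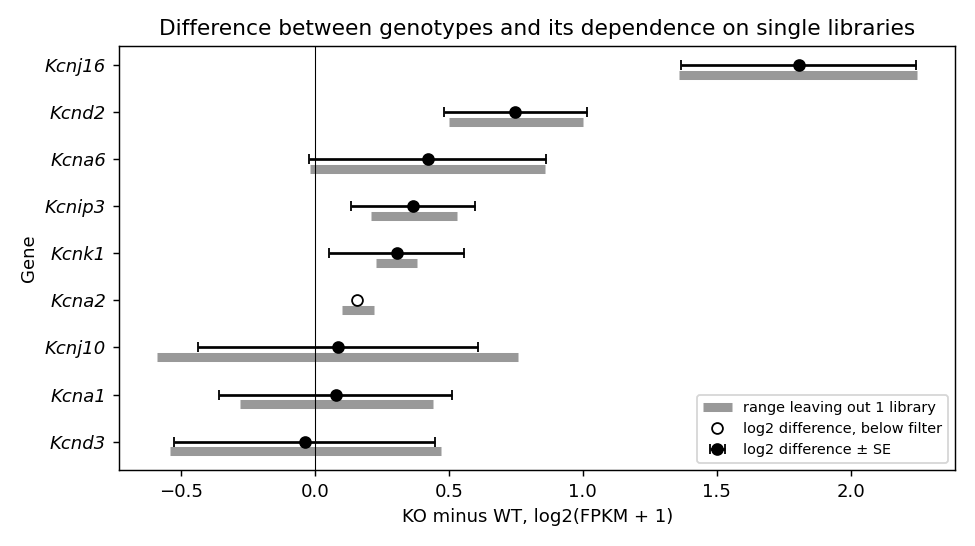
Difference in mean log2(FPKM + 1), KO minus WT, for each gene (points) with the SE of the limma fit (thin bars), and the range obtained when any 1 library was left out (grey bars). Kcna2 (open point) was below the filter and has no SE; the grey bars of Kcnj10, Kcnd3, Kcna1 and Kcna6 cross 0.

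The remaining potassium channel genes, found by symbol and not for how they moved, numbered 84. Of these, 59 were under 1 FPKM in every library and 19 were tested. By limma 0 of the 19 passed the adjusted threshold and 3 had an unadjusted p under 0.05, where 5.65% of all tested rows did. The KO pair lay wholly above the WT pair for 3 of these genes, wholly below for 3, and 13 overlapped, close to the shares over all tested rows. Kcnk3 and Kcns1 reached 1 FPKM in the KO libraries alone, and Kcnh8 in the WT libraries alone. Each passed the filter through its higher group, so the separation and the p-values of these genes are partly set by the filter. Nothing is read from either count. The median log2 difference of the 19 tested genes was 0.23, and it was -0.32 without WT replicate 1.

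Among the 3 that were higher, Kcnk3, which encodes the acid-sensitive background channel TASK-1, was at 0.747 and 0.82 FPKM in the WT pair against 4.26 and 2.44 FPKM in the KO pair (log2 difference 1.25, SE 0.40). Kcns1, a silent Kv subunit that modifies Kv2 channels, was at 0.02 and 0.017 FPKM in the WT pair against 1.40 and 1.57 FPKM in the KO pair. Kcnip2 was the third, with the values given above. These 3 were picked for groups that did not overlap, and all were at low levels.

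Of the 3 that were lower, Kcnh8, a channel of the ether-a-go-go family, showed the widest gap. It was at 2.39 and 1.88 FPKM in the WT pair against 0.28 and 0.553 FPKM in the KO pair (log2 difference -1.15, SE 0.37). Kcnab3 is given above. Kcnk2, which encodes the mechanosensitive channel TREK-1, was at 2.21 and 2.27 FPKM in the WT pair against 2.08 and 1.74 FPKM in the KO pair, a difference of -0.16 (SE 0.35).

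Several of the other abundant channel genes followed the library number and not the genotype. Kcnj8, which encodes an inward rectifier subunit known in mural cells, was listed at 0 in WT 1 but at 5.05 FPKM in WT 2, and its KO pair read 1 and 4.89 FPKM. Kcne1l, a small auxiliary subunit, was at 0.761 and 18.7 FPKM in the WT pair against 4.59 and 19.5 FPKM in the KO pair. Kcnk12 was at 0.165 and 5.52 FPKM in the WT pair against 2 and 4.56 FPKM in the KO pair. Each was higher in the libraries numbered 2. The endothelial marker Cldn5 was too, at 26.8 (WT 2) and 26.3 FPKM (KO 2) against 0 and 0.035 FPKM in the libraries numbered 1. Pecam1, another endothelial marker, was at most 0.002 FPKM and Pdgfrb, a mural marker, at most 0.158 FPKM in any library. The part of endothelial or mural cells in the values of these channel genes was not tested. Kcne4, another auxiliary subunit, went the other way, with 10.3 FPKM for WT 1, 4.82 FPKM for KO 1, and listed at 0 in both libraries numbered 2. Kcnmb4, the beta subunit of the large-conductance calcium-activated channel, was at 22.2 and 33.1 FPKM in the WT pair against 29.3 and 29.0 FPKM in the KO pair. The table also lists Kcnmb4os1, named as its opposite-strand gene, at 40.1 and 59.4 FPKM in the WT pair against 58.0 and 52.3 FPKM in the KO pair, and without knowing whether counting used strand the reads of the 2 genes cannot be told apart.

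**Figure D3:**
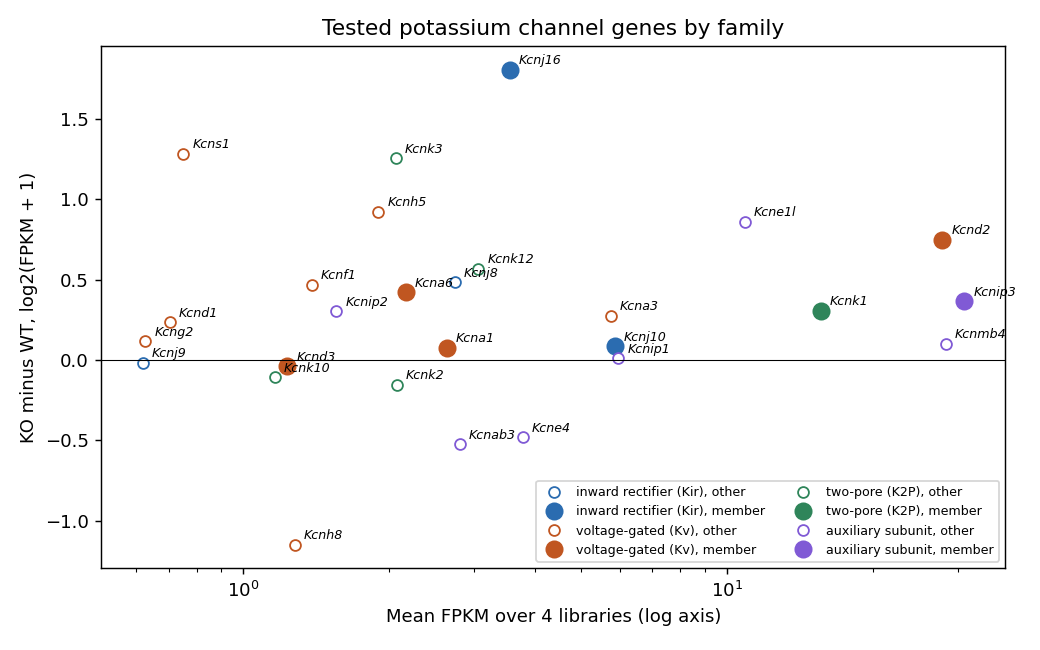
Log2 difference (KO minus WT) against mean FPKM over the 4 libraries (log axis) for the potassium channel genes that were tested, with the 8 tested members of the group filled and the 19 others open, coloured by family. Kcnj16 has the highest difference and Kcnd2 the highest level of any pore-forming gene; the others lie on both sides of 0.

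Transporters and volume regulators that work beside potassium channels in glia were a list of 15 genes, 12 of them tested. By limma 0 passed, with 6 higher and 1 lower in both KO libraries, where 16.6% and 18.3% of all tested rows were so, and a median log2 difference of 0.21 beside 0 over all tested rows. Hepacam, a cell adhesion protein that anchors chloride channels in glia, was at 16.8 and 17.2 FPKM in the WT pair against 45.9 and 29.6 FPKM in the KO pair (log2 difference 1.07, SE 0.29). Atp1b1, a beta subunit of the sodium-potassium pump, was at 42.4 and 39.7 FPKM in the WT pair against 62.2 and 31.5 FPKM in the KO pair, with groups that overlapped. As with Kcnd2, KO 1 was the highest library for Hepacam.

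The balance of precursor and mature oligodendrocyte markers also differed between the libraries. Of 5 precursor markers, 4 were tested and all 4 were higher in both KO libraries, with a summed level of 138 and 164 FPKM in the WT pair against 220 and 211 FPKM in the KO pair. By limma 0 passed. Pdgfra, which encodes a PDGF receptor that drives precursor division, was at 18.5 and 26.8 FPKM in the WT pair against 40.2 and 42.5 FPKM in the KO pair. Of 8 markers of differentiating oligodendrocytes, all tested, 6 were lower in both KO libraries and 0 higher. Among all tested rows, 16.6% were higher and 18.3% lower in this sense, or 21.7% and 13.1% after rescaling to TPM. They summed to 862 and 526 FPKM in the WT pair, against 553 and 257 FPKM in the KO pair. Kcnd2, Kcnj16, Kcnip3, Kcnk1 and Kcna2 had the same direction as the precursor markers, and the part of that balance in their values was not tested. In bulk RNA, fewer cells of a type and less RNA per cell cannot be told apart.

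Neurons also express Kcnd2, Kcna1, Kcna2 and Kcna6, and several of their defining genes were near 0 here. Of 10 neuron markers, 3 were tested. Of these, 2 were higher in both KO libraries (Stmn2 and Snap25) and 0 lower, where 16.6% and 18.3% of all tested rows were so. Syt1, below the filter, was lower in both KO libraries (0.225 and 0.251 FPKM, against 0.316 and 0.354 FPKM in WT). The nuclear marker Rbfox3 was at most 0.084 FPKM, and the vesicular glutamate transporter genes Slc17a7 and Slc17a6 at most 0.031 and 0.002 FPKM. The summed level of the 10 neuron markers was 15.8 and 32.3 FPKM in the WT pair against 21 and 40.4 FPKM in the KO pair, most of it Tubb3. Stmn2, a growth-associated gene of young neurons, was at 1.35 and 0.503 FPKM in the WT pair against 3.67 and 6.57 FPKM in the KO pair. The part of neurons in the values of Kcnd2 and the 3 Kcna genes was not tested. Microglia markers (6 genes, 5 tested) overlapped between the genotypes in each case, which tells little for 5 tested genes beside those shares of 16.6% and 18.3%.

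**Figure D4:**
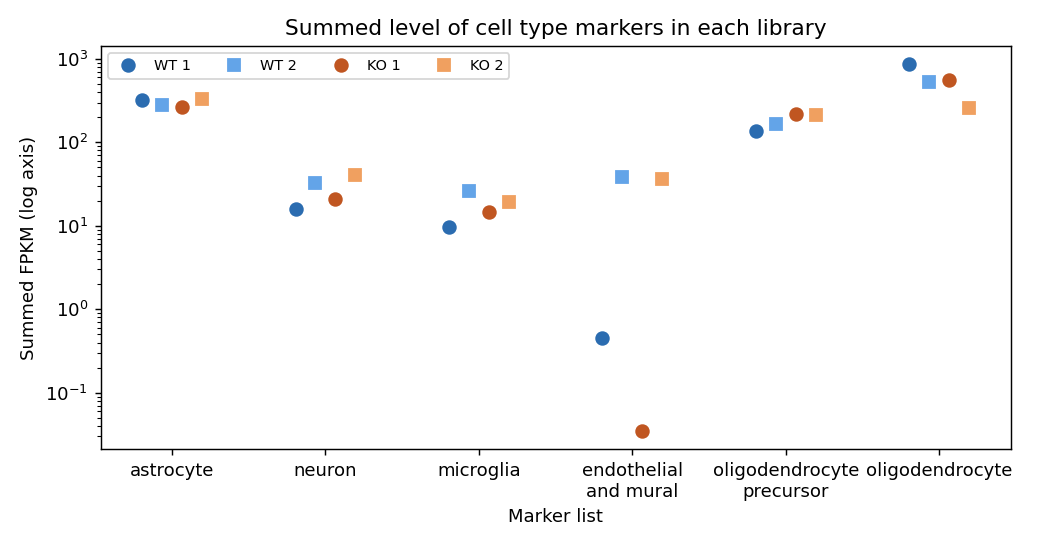
Summed FPKM of each marker list on a log axis, 1 point per library (circles for libraries numbered 1, squares for those numbered 2). Precursor sums are higher in both KO libraries, oligodendrocyte sums range from 257 FPKM in KO 2 to 862 FPKM in WT 1, and endothelial and mural sums are near 0 in both libraries numbered 1.

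The genes whose profile over the 4 libraries came nearest to those of Kcnj16 and Kcnd2 were found by the Euclidean distance between centred log2(FPKM + 1) values. For Kcnj16 these were Polm, a DNA polymerase gene (distance 0.372), Scd1, a stearoyl-CoA desaturase gene (0.397), and Zfp942, a zinc finger gene (0.409). Scd1 was at 0.721 and 2.82 FPKM in the WT pair against 6.40 and 5.91 FPKM in the KO pair, with WT 1 the lowest library as for Kcnj16. For Kcnd2 they were Xpr1, a phosphate exporter gene (0.075), Dcc, a netrin receptor gene (0.105), and Rell1 (0.111). Xpr1 was at 7.57 and 7.39 FPKM in the WT pair against 15.3 and 11 FPKM in the KO pair, with KO 1 the highest library as for Kcnd2. Unnamed genes, pseudogenes and small RNAs were passed over, and 4 tested rows lay as near to Kcnj16 as Zfp942 or nearer. Within a distance of 0.3 there were 98 rows for Kcnd2 and 0 for Kcnj16. The distance is not scaled for the size of a gene's differences. With 4 libraries such likeness is a description of these values.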

How the data were processed

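The deposited table gives FPKM, 1 column per library, for 4 libraries. Per the submitters' processing notes the reads were handled with TopHat against mm10. The program and annotation behind the FPKM, and whether strand was used, were not given in the sources used here. The fit used log2(FPKM + 1) of the deposited values, unscaled. Rows with at least 1 FPKM in at least 2 libraries were fitted with limma 3.58.1 in R 4.3.3 (genotype as the single term, empirical Bayes with a trend of variance on level, p-values adjusted by Benjamini-Hochberg over all tested rows), and the fit was tested on simulated data. Members below the filter are given by their values alone.

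The 9 genes and the lists were chosen with earlier results of these data known. Other channel genes were named if among the 8 highest mean levels, or among the 8 widest differences between groups that did not overlap with at least 2 FPKM in the higher group. From each partner or marker list the 2 highest and up to 2 widest were eligible, with defining markers added where near 0. Kcns1, Kcnip2, Cntnap2, Cntn2 and Kcnd3os were named after their values were seen. Fragments per FPKM were estimated from the commonest low value times transcript length among genes with 1 transcript in GENCODE M21. They are approximate, and give no interval for counting error. Loci and sequences come from GENCODE M21 (GRCm38, the assembly mm10 names). Alternatives covered the pseudocount, the filter, the scaling, the variance trend, the replicate number and each library left out. Some genes and sequences that these rules cover are not reported here.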

Additional observations from a re-analysis of the deposited data

How the results depend on the processing

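No alternative brought any row past the adjusted threshold in limma: the count stayed at 0 for all rows and for the other potassium channel genes. Without the filter, 80 other channel genes could be counted, of which the KO pair lay above for 11 and below for 7, since rows near 0 then entered. The count of the 9 genes with both KO libraries higher was 5 with the pseudocount at 0.5 or 0.1, 6 after rescaling to TPM and 4 after quantile normalization, and the count lower was 0 in each of these. The log2 difference of Kcnj16 lay between 1.36 (without WT replicate 1) and 2.58 (pseudocount 0.1), and was 2.39 after rescaling to TPM. TPM values were larger than FPKM and the pseudocount stayed at 1, so that setting also lowered the weight of the pseudocount. On FPKM with a pseudocount of 0.5, the log2 difference of Kcnj16 was 2.15. That of Kcnk1 was 0.42 in TPM. Signs turned when KO replicate 1 was left out for Kcnj10 (-0.59), Kcna1 (-0.28), Kcna6 (-0.02) and Kcnd3 (0.47). The labels number the libraries 1 and 2 in each genotype. Deviations of same-numbered libraries from their group means correlated at 0.289 over 10754 rows, and with 2 pairs this does not establish a pairing. With the replicate number as a block, 0 rows passed, and 477 higher and 548 lower rows had an unadjusted p under 0.05, against 302 and 306 without the block.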
